A study of Homo sapiens with 4 samples.

Results

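In Jurkat T cells, an established line grown from a human T-cell leukemia, 227 genes were at least 2-fold higher with the BET bromodomain inhibitor JQ1 than with its solvent, both in resting cells and in cells given phytohemagglutinin (PHA). These genes were chosen by their measured values. The mean expression over the 4 libraries had to reach 1 FPKM (fragments counted on the gene, scaled to its length and to the depth of the library), and the ratio of FPKM, with 0.1 added to each value, had to reach 2 for JQ1 against DMSO and again for JQ1 + PHA against DMSO + PHA. Of 50868 listed genes, 11503 had the required mean level, 249 also passed both ratios, and 22 of those were set aside by name, namely 16 histone genes, 4 genes with ZNF names, MYC and HEXIM1. MYC was thus higher with JQ1 here, from low levels (0.629 FPKM in DMSO, 0.918 in DMSO + PHA, 1.55 in JQ1 and 2.72 in JQ1 + PHA). The JQ1 ratios of the 227 members are therefore a description of how they were picked and carry no test.

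All 4 conditions were Jurkat cultures kept for 24 h with DMSO (the solvent), with 0.5 µM JQ1, with DMSO and 150 ng/ml PHA, or with 0.5 µM JQ1 and 150 ng/ml PHA. The labels give no further treatment or genetic change that the cultures share. RNA-seq was done on 1 library per condition, so the spread between cultures is unknown, and every interval printed is a 95% exact (Clopper-Pearson) interval of the ratio of read counts that covers counting error only. Those intervals were computed on counts without the added 0.1 FPKM, so for genes of low level they can sit above the FPKM ratio. Library totals lay between 18620954 and 19685401 counts. All 14 T-cell markers examined were at 1 FPKM or above in all 4 libraries, and the examined myeloid, epithelial, fibroblast and erythroid markers were below 1 FPKM in all of them.

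BET proteins bind acetylated lysines on histones and help bring P-TEFb, the kinase that releases paused RNA polymerase II, to genes. JQ1 fills the bromodomain pocket and displaces BET proteins from chromatin, and a fall of MYC in many blood cancer lines and a rise of HEXIM1, the protein that holds P-TEFb inactive, are known responses to such drugs. PHA is a plant lectin that crosslinks glycoproteins of the T-cell surface, the antigen receptor among them. In bulk RNA, more RNA per cell and more cells of an expressing kind cannot be told apart.

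Among the 11503 genes tested, 5.22% were at least 2-fold higher with JQ1 without PHA, 3.69% with PHA, and 2.16% in both comparisons before names were set aside. Another 351 genes passed only without PHA and 175 only with PHA. The rule held both ratios of a member at 2-fold or above, which by itself brings them nearer each other. Their log2 values differed by at most 0.5 in 190 of the 227 members and by more than 1 in 9. The median log2 ratio of the members was 1.4 without PHA and 1.35 with PHA, beside -0.01 and -0.02 for all genes tested. Without PHA the ratio was the larger one for 131 members and with PHA for 96. Most members passed by a modest margin, since the smaller of the 2 folds was below 2.5 in 136 members, above 3 in 41 and above 4 in 15.

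**Figure D1:**
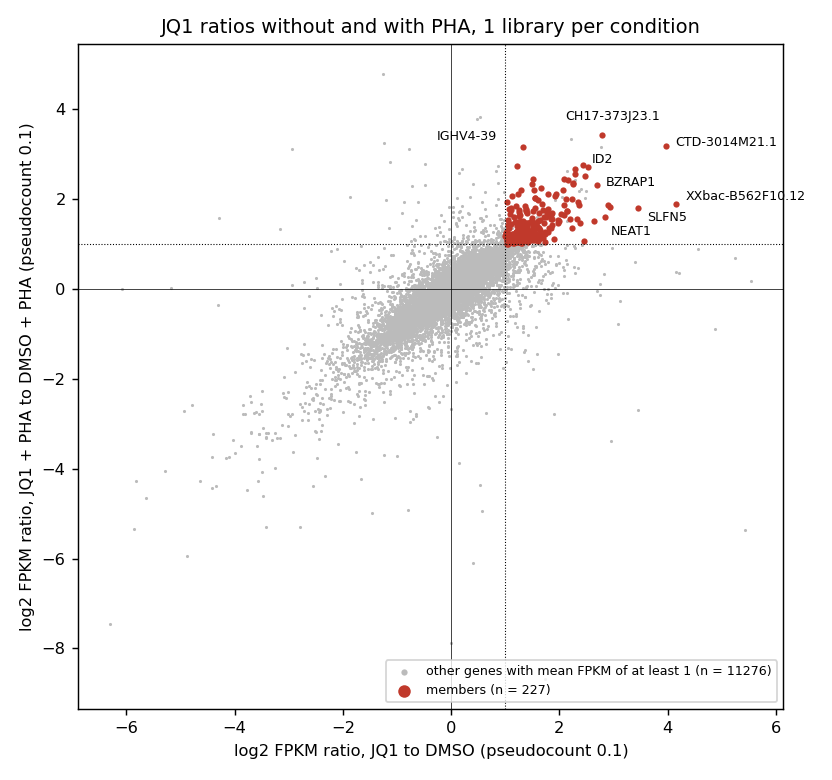
Log2 FPKM ratio of JQ1 to DMSO (horizontal) and of JQ1 + PHA to DMSO + PHA (vertical) for the 11503 genes tested, 1 point per gene, with the 227 members in red and dotted lines at 2-fold. The members occupy the upper right corner by the way they were chosen, and a few, such as XXbac-B562F10.12, CTD-3014M21.1 and SLFN5, lie far to the right of most members.

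The levels that follow describe the members and are shaped by the rule, since a mean of at least 1 FPKM with a 2-fold higher JQ1 value favours genes low in DMSO and leaves little room below 1 FPKM under JQ1. Their median level was 1.53 FPKM in DMSO and 1.74 FPKM in DMSO + PHA, and 4.73 FPKM in JQ1 and 4.90 FPKM in JQ1 + PHA. The median of all genes tested stayed between 4.79 and 5.01 FPKM. In DMSO 74 members were below 1 FPKM and in DMSO + PHA 69, against 0 in both JQ1 libraries, and the 60 that were below 1 FPKM in both DMSO libraries reached the required mean only through the JQ1 libraries. Members at 10 FPKM or more numbered 14 in DMSO, 19 in DMSO + PHA, 67 in JQ1 and 66 in JQ1 + PHA. Together they took 0.777% of all counts in DMSO, 0.845% in DMSO + PHA, 2.18% in JQ1 and 2.17% in JQ1 + PHA.

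Depth set how firmly each member was placed. In all 4 libraries 139 members had at least 100 counts, while 33 had fewer than 20 counts in a DMSO library and 7 had 3 counts or fewer in a library. The counting interval lay above 0 on the log2 scale in both comparisons for 221 members, and its lower bound was at least 2-fold in both for 125. The interval reached 0 in at least 1 comparison for the other 6: BRD9P2, RP11-537I16.2, RP11-638I2.4, RP11-454L9.2, RN7SL145P and KB-7G2.9. Just inside the 2-fold limit were RRM2, EIF4EBP2 and RP11-649A18.4, each with a smaller fold of 2.01, and just outside were RCOR2 at 2.00 (a log2 value of 0.998) and PELI1 and CTD-2260A17.2 at 1.99. At the level limit, RP11-20I23.10 and ZSCAN23 (mean 1.01 FPKM) and DOCK4 (1.06 FPKM) were just inside, and TEX14 and FAM49A (0.996 FPKM) and NTAN1P2 (0.983 FPKM) were just outside.

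The starts of 7 members are shown because the results turn on these genes: ID1, STAT4 and BMF are among the 20 members with the largest smaller ratio, POLR2A among the 10 highest, and FOXO1, MXD3 and PPP1R15A belong to the growth and stress genes described further on. Each line holds the 100 bases before the RefSeq start of the gene on GRCh38.p14, 5′ to 3′ on the gene's own strand, in lower case with motif matches in capitals. The 13 motifs searched, on both strands, were TATAAA (the TATA box), CACGTG (the E-box that MYC and MAX bind), TGACGTCA (the cAMP response element), TGACTCA (the AP-1 element), GGGCGG (the GC box), CCAAT, CCGGAAGT (ETS), GTAAACA (forkhead), TGTGGTT (RUNX), GCGCATGCG (NRF1), GGGACTTTC (NF-κB), TTTCGCGC (E2F) and CCATATTAG (serum response), and adjacent matches may run together.
ID1, chr20:31605189-31605288, plus strand: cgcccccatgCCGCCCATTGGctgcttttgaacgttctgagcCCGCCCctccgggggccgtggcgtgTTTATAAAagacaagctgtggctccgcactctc
STAT4, chr2:191151597-191151696, minus strand: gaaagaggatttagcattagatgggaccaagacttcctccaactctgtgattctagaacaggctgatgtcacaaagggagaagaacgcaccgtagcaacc
BMF, chr15:40108880-40108979, minus strand: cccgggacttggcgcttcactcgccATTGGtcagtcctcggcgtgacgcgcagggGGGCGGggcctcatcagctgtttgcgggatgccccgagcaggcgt
FOXO1, chr13:40666642-40666741, minus strand: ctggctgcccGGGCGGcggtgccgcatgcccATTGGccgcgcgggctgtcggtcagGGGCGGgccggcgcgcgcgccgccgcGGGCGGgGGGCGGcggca
MXD3, chr5:177312753-177312852, minus strand: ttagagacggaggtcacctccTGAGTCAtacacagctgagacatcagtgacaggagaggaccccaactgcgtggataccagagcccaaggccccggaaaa
POLR2A, chr17:7484266-7484365, plus strand: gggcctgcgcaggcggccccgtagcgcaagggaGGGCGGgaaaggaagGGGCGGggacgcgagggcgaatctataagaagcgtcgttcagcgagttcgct
PPP1R15A, chr19:48872321-48872420, plus strand: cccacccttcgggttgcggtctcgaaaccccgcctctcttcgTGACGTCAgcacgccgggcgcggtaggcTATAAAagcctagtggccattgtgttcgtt

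No motif searched was in all 7 stretches, and GC and CCAAT boxes recurred most. ID1 and PPP1R15A hold a TATA box, which begins 31 bases before the start in ID1 (an overlapping match on the other strand begins at 33) and 30 bases before in PPP1R15A, and 4.99% of the 35116 RefSeq promoters hold one in the same 100 bases. PPP1R15A also holds the cAMP response element (1.17% of promoters) and MXD3 the AP-1 element on the other strand (1.94%). GC boxes, in 31.3% of promoters, appear in ID1, BMF, FOXO1 and POLR2A, and CCAAT, in 18.1%, in ID1, BMF and FOXO1. The STAT4 stretch held none of the 13 motifs. The E-box (3.43%), ETS (2.52%), RUNX (1.46%), forkhead (1.13%), NRF1 (1.06%), E2F (0.174%), NF-κB (0.137%) and serum response (0.0171%) motifs were in none of the 7, which says only that these letters are not in these windows. Up to 29 of the 100 bases lie inside the gene's locus as the deposited files draw it, because the annotations place some starts differently. A share of motifs over all members is not given, because the promoter table matched 117 of the 147 protein-coding members, 79.6%, which is under the 80% needed for such a check.

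The largest smaller ratio belonged to CTD-3014M21.1 (chr17:43360041-43361361), a locus of the GENCODE class TEC, transcripts still awaiting experimental proof. Its FPKM was 1.05 in DMSO, 1.77 in DMSO + PHA, 17.9 in JQ1 and 16.8 in JQ1 + PHA. The folds were 15.7 without PHA, with a log2 interval of the counts from 3.53 to 4.73, and 9.04 with PHA (2.80 to 3.72). It overlaps no other gene with more than 3 counts. CH17-373J23.1, a lncRNA at chr1:145281116-145281462, followed at 0.766, 0.586, 5.86 and 7.27 FPKM in the same order, resting on 5 and 4 counts in the DMSO libraries and 40 and 47 in the JQ1 libraries. RP5-882C2.2, a lncRNA on chromosome 17, measured 3.30 FPKM in DMSO, 2.68 in DMSO + PHA, 19.6 in JQ1 and 18.1 in JQ1 + PHA. It overlaps UBTF, which lies on the other strand and was at 26.6, 28.6, 25.2 and 21.8 FPKM.

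From the fourth place on most of the 20 leading members were protein-coding. ENC1 (chr5:74627406-74641424), an actin-binding kelch protein first described in the developing nervous system, was at 0.981 FPKM in DMSO and 0.982 in DMSO + PHA, and at 5.92 in JQ1 and 6.05 in JQ1 + PHA. Its folds of 5.57 (log2 interval 2.38 to 2.81) and 5.68 (2.42 to 2.84) differed least among the 20. TEAD1, the DNA-binding partner of YAP and TAZ in the Hippo pathway, was at 0.709 and 0.576 FPKM in the DMSO libraries and at 3.88 in both JQ1 libraries. BMF, a BH3-only protein that promotes apoptosis, was at 0.321 and 0.277 FPKM in the DMSO libraries and at 1.97 and 2.31 in the JQ1 libraries. STAT4, which carries the interleukin-12 signal to the nucleus, was at 0.923 and 0.882 FPKM without JQ1 and at 4.78 and 4.93 with it. For each of these 4 genes both JQ1 libraries lay above both DMSO libraries, an order that the rule nearly fixes.

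Among the rest of the 20, CAB39, the MO25 scaffold that activates the kinase LKB1, started from a higher level, with 6.29 FPKM in DMSO, 7.56 in DMSO + PHA, 30.1 in JQ1 and 30.7 in JQ1 + PHA. HIPK1, a nuclear kinase, was at 4.01, 5.21, 20.8 and 20.1 FPKM in the same order, and SZRD1, a protein with an RNA-binding SUZ domain, at 5.13, 5.14, 19.8 and 21.8 FPKM. ABTB2, an ankyrin-repeat and BTB protein, was at 0.271 and 0.607 FPKM in the DMSO libraries and 2.66 and 2.49 in the JQ1 libraries. Among the 20, LINC01389 (2 counts in DMSO + PHA) and XXbac-B562F10.12 (2 counts in DMSO) rest on very few reads. For XXbac-B562F10.12 the count ratio without PHA was 4.82 on the log2 scale, with an interval from 2.90 to 7.90, and with PHA the interval ran from 1.14 to 2.91.

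**Figure D2:**
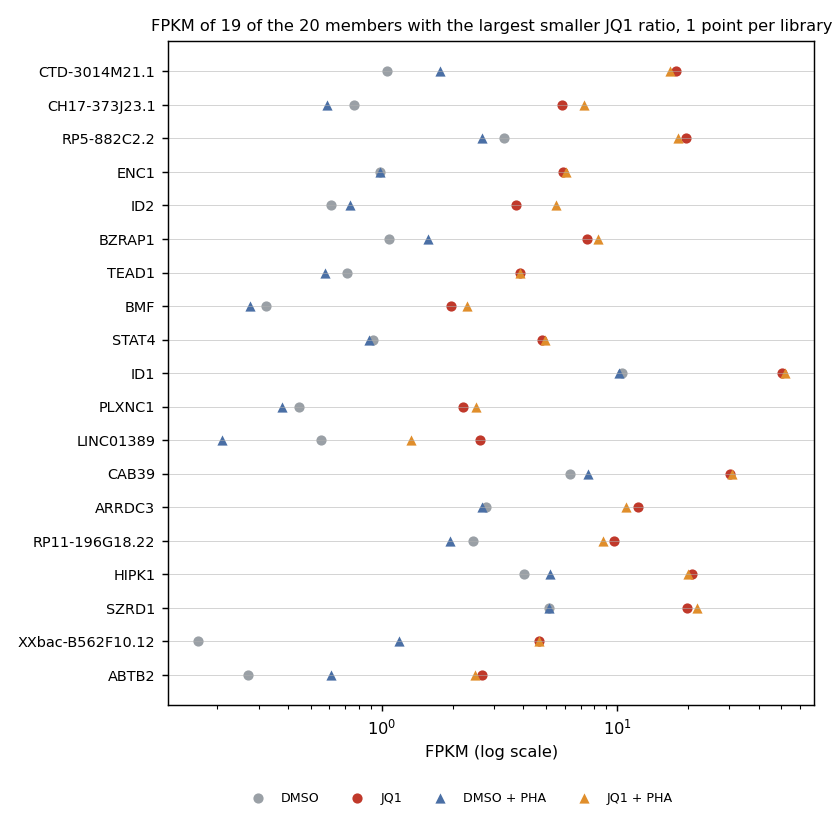
FPKM (log axis) of 19 of the 20 members with the largest smaller ratio, 1 point per library, circles without PHA and triangles with PHA. For each gene drawn both JQ1 libraries lie to the right of both DMSO libraries, an order that the rule nearly fixes. The values run from 0.165 FPKM for XXbac-B562F10.12 in DMSO to 51.8 FPKM for ID1 in JQ1 + PHA.

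Members were sorted by function after their values were seen, which placed 83 protein-coding members in 10 groups and left 64 protein-coding and 80 other members in none. The groups are an aid to reading and no evidence that a function was favoured. The ID proteins, helix-loop-helix factors without a DNA-binding region that hold E proteins inactive, were represented by ID1, ID2 and ID3. ID1 was at 10.5 FPKM in DMSO, 10.2 in DMSO + PHA, 50.2 in JQ1 and 51.8 in JQ1 + PHA, which gives folds of 4.75 (log2 interval 2.11 to 2.41) and 5.06 (2.20 to 2.5). ID2 went from 0.611 to 3.73 FPKM without PHA and from 0.733 to 5.53 with PHA, and ID3 from 17.0 to 61.3 and from 22.4 to 65.7. ID1 and ID3 were among the 10 members of highest mean FPKM, and ID2 was expressed far below them in every library.

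Genes that restrain growth or answer stress formed the largest of these groups, with 13 members and median folds of 3.11 without PHA and 2.80 with it. CDKN1B, the CDK inhibitor p27 (chr12:12715058-12722371), was at 13.7 FPKM in DMSO, 14.8 in DMSO + PHA, 36.2 in JQ1 and 34.7 in JQ1 + PHA. CDKN2D, the CDK4 and CDK6 inhibitor p19, was at 4.11, 3.99, 12.8 and 13.2 FPKM in the same order, and BTG1, an antiproliferative partner of the mRNA deadenylase, at 2.91, 4.18, 12 and 12.2 FPKM. In all 3 both JQ1 libraries lay above both DMSO libraries, which the rule makes nearly certain. SESN3, a sestrin that lowers mTORC1 activity, was at 6.5 and 7.29 FPKM without JQ1 and 28.0 and 26.6 with it. ARRDC3, an arrestin-domain adaptor of receptor trafficking, was at 2.77 and 2.66 FPKM without JQ1 and 12.3 and 10.9 with it. FOXO1, a forkhead factor of quiescence and stress, was at 0.845 and 1.09 FPKM without JQ1 and 3.36 and 3.09 with it.

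Within the same group, MXD3, which competes with MYC for its partner MAX, was at 0.596, 0.617, 1.81 and 1.91 FPKM in DMSO, DMSO + PHA, JQ1 and JQ1 + PHA. PNRC1, a nuclear receptor coactivator, had folds of 3.11 and 2.46, and CCNG2, the unconventional cyclin G2, had 3.05 and 2.08. PPP1R15A (GADD34), which directs the dephosphorylation of eIF2α, had folds of 2.40 and 2.06. It was the only member among 14 tested genes of the unfolded protein and integrated stress response, of which 3 were at least 2-fold lower without PHA and 4 with PHA (median log2 ratios -0.13 and -0.61), and the 15 tested genes of the oxidative stress response held no member and 3 that were lower in both comparisons (medians -0.45 and -0.18). EIF4EBP2, a repressor of cap-dependent translation, was near the limit with folds of 2.07 and 2.01, at 43.6 and 45.3 FPKM without JQ1 and 90.5 and 91.1 with it.

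Signalling genes of lymphocytes made up a further 11 members, with median folds of 2.62 and 2.42. JAK1, the kinase shared by many cytokine receptors, was at 19.4 FPKM in DMSO, 25.4 in DMSO + PHA, 52.0 in JQ1 and 56.3 in JQ1 + PHA. STAT2, of the interferon pathway, had folds of 2.39 and 2.41, and PIM1, a kinase induced by STAT factors, had 3.63 and 3.23. On the calcium side, the kinase CAMK4 was at 16.5, 14.8, 35.1 and 33.2 FPKM in DMSO, DMSO + PHA, JQ1 and JQ1 + PHA, and the calcium sensor STIM2 at 2.92, 2.70, 6.99 and 6.34. SH3BP5, a binding partner of the kinase BTK, was at 2.15 and 2.93 FPKM without JQ1 and 11.5 and 10.9 with it. PAG1, the adaptor that brings the inhibitory kinase CSK to the membrane, had folds of 2.62 and 3.35, PTPN12, a tyrosine phosphatase, 3.25 and 3.35, TIAM1, an activator of Rac, 2.26 and 2.18, and PDE3B, which degrades cAMP, 2.54 and 2.42.

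Members that belong to the transcription machinery included POLR2A (chr17:7484366-7514618), the largest subunit of RNA polymerase II. It was at 38.5 FPKM in DMSO, 42.5 in DMSO + PHA, 86.5 in JQ1 and 91.6 in JQ1 + PHA, the fourth highest mean of the members. Its folds were 2.24 (log2 interval 1.13 to 1.20) and 2.15 (1.08 to 1.14). TCEB3 (Elongin A), an elongation factor, had folds of 2.30 and 2.31, the coactivators NCOA1 and NCOA3 had 2.71 and 2.13 and 2.94 and 2.75, and KAT2B (PCAF), an acetyltransferase, had 3.48 and 2.55. ZMYND11, a bromodomain protein outside the BET family that reads a methylated histone, had 2.34 and 2.43, and NXF1, the mRNA export receptor, 2.04 and 2.11.

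A group of 6 genes best known from neurons had the highest median folds of the groups of more than 3 genes, 3.88 and 4.25, from median levels of 0.896 FPKM in DMSO and 0.842 in DMSO + PHA. Beside ENC1 they held BZRAP1, a scaffold of the presynaptic zone (1.07, 1.58, 7.46 and 8.27 FPKM in DMSO, DMSO + PHA, JQ1 and JQ1 + PHA), and the semaphorin receptor PLXNC1 (0.444, 0.378, 2.22 and 2.52). NPTXR, APBA1 and KIDINS220 completed the group with folds between 2.14 and 3.50. The group was picked from the members after their values were seen. Of 43 tested genes on a list of synaptic and exocytosis genes, none was a member, with median log2 ratios of 0.13 and 0.06. On that list 1 gene was higher and 4 lower by 2-fold without PHA, and 0 higher and 4 lower with PHA. In the Wnt pathway, AXIN2 had folds of 2.45 and 2.68, DACT3 4.08 and 3.18, and CTNNBIP1, which blocks β-catenin, 2.07 and 2.14. All 3 are known as negative regulators or feedback genes of the pathway.

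The highest 2 members by mean FPKM, TUBB4B and NEK7, were placed with the cytoskeleton and transport. TUBB4B (chr9:137241213-137243707), a beta-tubulin, was at 105 FPKM in DMSO, 97.2 in DMSO + PHA, 275 in JQ1 and 269 in JQ1 + PHA, and its folds of 2.62 (log2 interval 1.35 to 1.43) and 2.77 (1.43 to 1.51) are among the best counted of all. NEK7, a kinase of mitosis and of the inflammasome, was at 54.3, 53.8, 138 and 129 FPKM in the same order, and DYNLL2, a dynein light chain, at 26.6, 27.1, 63.0 and 63.8. The 12 genes of this group had median folds of 2.60 and 2.47, while on the lists 1 of 21 tested microtubule and neuronal cytoskeleton genes was a member (ENC1, median log2 ratios of the list 0.40 and 0.37) and none of 28 actin cytoskeleton and adhesion genes was (0.02 and -0.03). SLC5A3, the myo-inositol transporter, was at 17.4, 20.9, 48.1 and 47.6 FPKM, and RRM2, the small subunit of ribonucleotide reductase, at 33.2, 30.9, 66.6 and 69.7. They head a group of 12 transport and metabolic genes with median folds of 2.56 and 2.41. The 7 genes of autophagy and the lysosome (ULK1, ATG2A, PINK1, TMEM41B, ARSA, LGMN and MTM1) stayed between 2.03- and 2.57-fold, and the 7 of the ubiquitin system had median folds of 2.48 and 2.32.

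**Figure D3:**
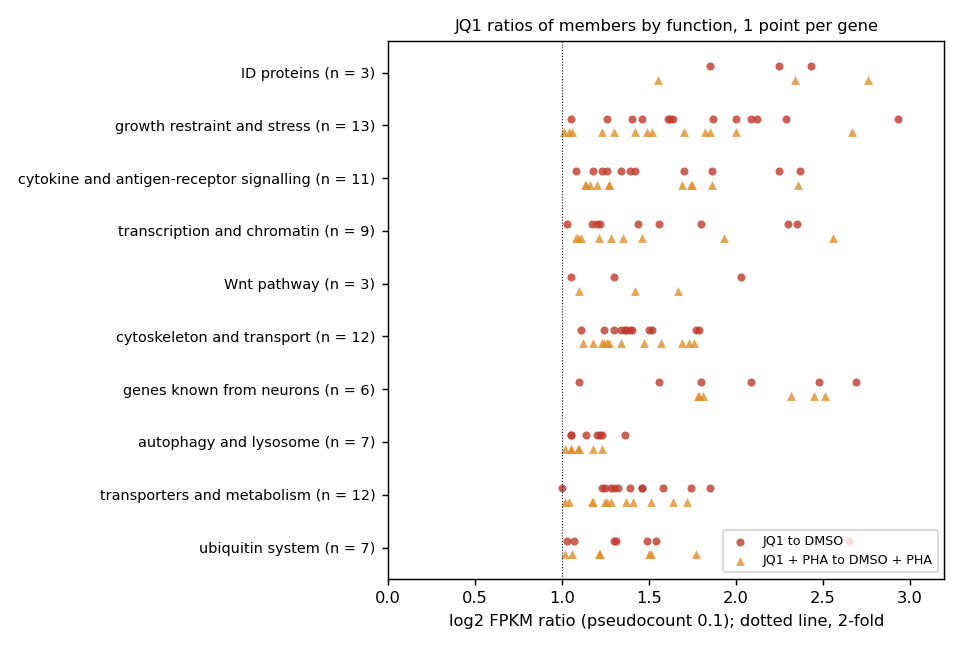
Log2 FPKM ratios of the 83 members placed in 10 function groups, 1 red circle per gene for JQ1 to DMSO and 1 orange triangle for JQ1 + PHA to DMSO + PHA, with a dotted line at 2-fold. The groups were made from the members after their values were seen. Among them the ID proteins and the genes known from neurons have the highest medians, 4.75- and 5.06-fold and 3.88- and 4.25-fold. The autophagy and lysosome genes cluster between 2.03- and 2.57-fold.

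Lists of known pathways, drawn up with earlier results of these data in view, are given as values beside 1.97% members among all genes tested. Since lists and members were both chosen with the data known, these shares are no evidence that a pathway took part. Of 15 tested CDK inhibitors and antiproliferative genes 4 were members (ARRDC3, BTG1, CDKN1B and CDKN2D), while 6 of the list were higher and 1 lower by 2-fold without PHA, 4 higher and 1 lower with PHA, and the list's median log2 ratios were 0.76 and 0.47. Of 26 tested genes of the Wnt, Hedgehog, TGF-beta and BMP pathways 4 were members (AXIN2 and the 3 ID genes), with 7 higher and 3 lower without PHA, 5 higher and 2 lower with PHA, and medians of 0.56 and 0.47. Of 17 p53 targets 2 were members (CCNG2 and TP53INP1), with medians of 0.44 and 0.36, and of 9 MYC antagonists and partners 1 was (MXD3), with medians of 0.40 and 0.61.

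The 14 tested genes of P-TEFb and its BET partners, HEXIM1 not among them, held no member, and their medians were 0.28 and 0.26. SERTAD1, a regulator of CDK4, came closest with log2 ratios of 2.43 and 0.97, followed by MLLT3, a subunit of the super elongation complex, with 0.96 and 0.95. BRD2, a BET gene, was at 27.5 and 24.4 FPKM without JQ1 and 45.9 and 45.5 with it, log2 ratios of 0.74 and 0.90. Of 25 tested T-cell receptor and costimulation genes none was a member, 1 was higher and 13 lower without PHA, 0 higher and 16 lower with PHA, with medians of -1.13 and -1.42. Of 27 lysosome and autophagy genes 1 was a member (ULK1), with medians of 0.34 and 0.26, and of 33 apoptosis regulators 1 was (BMF), with medians of -0.03 and -0.10. Larger families were collected by gene symbol alone, so they can hold antisense RNAs and pseudogenes such as ASB16-AS1 and UBE2Q2P2. Members were 4 of 147 tested genes with solute carrier names and 7 of 272 with BTB, kelch, F-box or ubiquitin ligase names. They were 3 of 216 with names of small GTPases or their regulators and 50 of 1109 listed under clone names. Of 181 genes with cilia, TTC, CCDC or WDR names 5 were members (CCDC183-AS1, CCDC92, CFAP70, WDR26 and WDR37).

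Noncoding genes were a larger part of the members than of the genes tested. By the GENCODE 44 classes, 147 members (64.8%) were protein-coding, against 82.5% of the genes tested and 83.1% of the 623 genes at least 2-fold lower with JQ1 in both comparisons. Another 50 (22.0%) were lncRNAs, against 7.39% and 9.47%, and 19 (8.37%) were pseudogenes, against 7.94% and 4.49%. The remaining members were 5 of the class TEC, 2 immunoglobulin V segments, 2 miscellaneous RNAs and 2 genes not in that release. Members made up 5.88% of the tested lncRNAs and 1.55% of the tested protein-coding genes, and the difference was seen at each level below 20 FPKM, with 5.87% and 1.91% at a mean of 1 to 2 FPKM, 6.36% and 1.67% at 2 to 5 FPKM, and 5.00% and 1.41% at 5 to 20 FPKM.

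Counting error touched lncRNAs more. The lowest of a gene's 4 counts had a median of 26 over the lncRNA members and of 369 over the protein-coding ones. Members whose lower bound was at least 2-fold in both comparisons were 1.29% of the tested lncRNAs (11 genes) and 1.12% of the tested protein-coding genes (106 genes); the shares were nearer each other than those of all members. By level, that bound was met by 0.903% of lncRNAs and 1.06% of protein-coding genes at 1 to 2 FPKM, by 0.707% and 1.18% at 2 to 5 FPKM, and by 4.17% (5 of 120) and 1.10% (42 of 3835) at 5 to 20 FPKM.

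**Figure D4:**
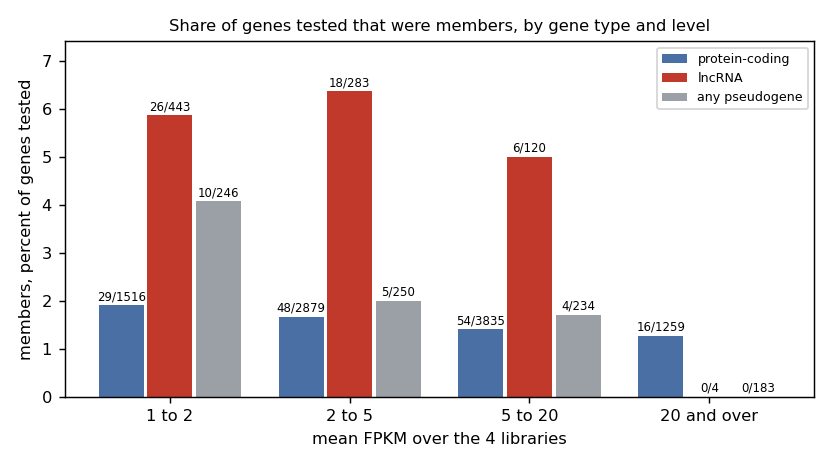
Members as a percent of the genes tested (bars, axis from 0), by gene type and by mean FPKM over the 4 libraries, with members over genes tested above each bar. For lncRNAs the bars stand at 5.87%, 6.36% and 5.00% in the 3 lower ranges, and for protein-coding genes between 1.27% and 1.91% in all 4.

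NEAT1 (chr11:65422774-65445540), the lncRNA that builds paraspeckles in the nucleus, had the highest mean of the lncRNA members, with 3.26 FPKM in DMSO, 6.99 in DMSO + PHA, 24.2 in JQ1 and 21.4 in JQ1 + PHA. Its folds were 7.22 (log2 interval 2.82 to 2.97) and 3.03 (1.56 to 1.67). Of the 80 members that were not protein-coding, 45 overlap a gene that was itself tested. How reads on overlapping genes or on either strand were assigned is not given in the sources used here, so the counts of these 45 may include reads of the partner. Of the 51 genes they overlap, 8 were at least 2-fold higher in both comparisons, where 2.16% of all genes tested were. These are themselves members, except HIST2H2BE, a histone gene set aside by name, so the rule had already picked them. Another 17 had log2 ratios within 0.5 of 0 in both. Of 22 same-strand pairs, 19 had a partner with log2 ratios above 0 in both comparisons and 1 below 0 in both. Their medians were 0.66 and 0.57. Of 27 opposite-strand pairs, 10 had a partner above 0 in both and 12 below 0 in both, with medians of 0.09 and -0.15. Strand was unknown for 5 further pairs, and POLR2J4 and AC004951.6 enter the same-strand pairs from both sides. The shares of all genes tested within 0.5 of 0, above 0 or below 0 in both were not computed. On the same strand, ANKRD12, which RP11-888D10.4 overlaps, was at 1.70, 1.54, 3.69 and 2.85 FPKM in DMSO, DMSO + PHA, JQ1 and JQ1 + PHA. On opposite strands some partners were lower. NOP14-AS1 was at 0.282, 0.561, 1.89 and 1.71 FPKM in DMSO, DMSO + PHA, JQ1 and JQ1 + PHA, while NOP14 on the other strand was at 38.6, 34.1, 18.4 and 17.1. GATS (CASTOR3P in GENCODE 44) was at 1.27, 1.56, 4.07 and 4.58 FPKM in the same order, while PVRIG, an inhibitory receptor gene on the other strand, was at 14, 13, 0.687 and 0.856.

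The members lay on all chromosomes except Y and the mitochondrial one. Their share of the genes tested was highest on chromosome 14 (15 of 411, 3.65%, or 10 of 398, 2.51%, without the immunoglobulin V segments described next) and chromosome 10 (15 of 465, 3.23%) and lowest on chromosome 8 (2 of 384, 0.521%) and chromosome 20 (2 of 317, 0.631%). Protein-coding members were long genes: the median span was 55.1 kb, against 33.3 kb for all tested protein-coding genes and 21.8 kb for those lower with JQ1 in both comparisons. Exon numbers were closer, with medians of 10, 9 and 8.

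By the lower coordinate of each locus, 41 members lay within 100 kb of another member, in 16 clusters. The share of all genes tested with such a neighbour was not computed, so whether members lie closer together than other genes was not tested. Of all members, 13 overlap another member. The largest cluster, with 5 members on chromosome 14 (106377300 to 106422218), is made of immunoglobulin heavy-chain V segments. These are IGHV7-34-1, IGHV3-35, IGHV3-36, IGHV3-37 and IGHV4-39. They rest on few reads, 33 in all in DMSO, 21 in DMSO + PHA, 106 in JQ1 and 103 in JQ1 + PHA. Over all listed IGHV genes the counts were 317, 225, 454 and 393 in the same order, 13 of these genes were tested, and the 8 that were not members had log2 ratios from -0.92 to 0.99 without PHA and from -0.02 to 1.81 with PHA. The best counted member was IGHV3-35, with 12, 6, 37 and 34 counts. For IGHV4-39, with 6, 2, 17 and 23 counts, the log2 count ratio with PHA was 3.6 (1.59 to 6.73). Of the B-cell markers, MS4A1 and CD79B were below 1 FPKM in all libraries and CD79A was lower with JQ1 (7.48, 6.33, 1.06 and 1.01 FPKM in DMSO, DMSO + PHA, JQ1 and JQ1 + PHA). V segments are near copies of each other, so reads may be shared among them.

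On chromosome 15, GOLGA6L10, UBE2Q2P2, GOLGA6L9 and GOLGA2P10 lie within 82339998 to 82513950. GOLGA2P10 was at 8.11, 7.30, 16.9 and 17.1 FPKM in DMSO, DMSO + PHA, JQ1 and JQ1 + PHA, and UBE2Q2P2 at 3.43, 4.62, 13.8 and 13.5. These are members of duplicated families and their read assignment is uncertain as well. On chromosome 1, 3 transcripts of the histone cluster (RP11-196G18.22, RP11-196G18.24 and RP11-196G18.23, 149844498 to 149862504) entered under clone names, and RP11-196G18.22, a histone pseudogene named H2BC20P in GENCODE 44, was at 2.45, 1.96, 9.67 and 8.74 FPKM. The histone genes HIST2H2AA4 and HIST2H2BC in the same stretch passed both ratios too and were set aside by name. In the same way RP11-380G5.3 is the ribosomal protein pseudogene RPL11P3 in GENCODE 44.

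Other clusters paired a coding gene with its neighbours. CDKN1B lies with RP11-180M15.7, which it overlaps, and with APOLD1, an endothelial stress gene at 1.08, 1.18, 3.35 and 3.24 FPKM in DMSO, DMSO + PHA, JQ1 and JQ1 + PHA. The loci of ID2 and KIDINS220 are 40.8 kb apart, SH3BP5 lies over its antisense gene SH3BP5-AS1 (1.43, 2.06, 3.17 and 4.70 FPKM), and DYNLL2 lies before RP11-159D12.8 (6.09, 5.78, 15.4 and 13.3 FPKM). Neighbours did not always follow: the stretch of chromosome 10 that holds FAM149B1 (2.28, 2.16, 5.34 and 5.32 FPKM) and CFAP70 (1.24, 1.48, 3.95 and 3.91) also holds MRPS16, with log2 ratios of -0.46 and -0.18, and DNAJC9, with -0.07 and 0.10.

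PHA alone moved few members by 2-fold or more, as it moved few of all genes tested. These ratios use the same libraries as the rule, and a gene low in 1 DMSO library was more readily chosen, so they are given as values. The median log2 ratio of DMSO + PHA to DMSO was 0.06 over the members and -0.01 over all genes tested, and that of JQ1 + PHA to JQ1 was 0.00 over both. In DMSO, 6 of the 227 members were at least 2-fold higher with PHA, where 2.1% of all genes tested were. Another 4 were at least 2-fold lower, where 1.19% of all genes tested were. Under JQ1, 2 were higher and 1 lower, where 1.04% and 1.03% of all genes were.

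SLFN5, a schlafen protein of the interferon response, was the furthest above DMSO of the well-counted genes among the 6 that were higher. It was at 3.81 FPKM in DMSO, 12.6 in DMSO + PHA, 42.8 in JQ1 and 44.1 in JQ1 + PHA. Its PHA ratio was 1.70 on the log2 scale (1.62 to 1.83) in DMSO and 0.04 (0.00 to 0.08) under JQ1, and its JQ1 folds were 11 without PHA and 3.49 with it. TP53INP1, a stress gene that p53 induces, was at 1.01, 2.14, 8.39 and 7.83 FPKM in DMSO, DMSO + PHA, JQ1 and JQ1 + PHA, and NATD1 at 0.474, 1.20, 3.05 and 2.62. In these 3 genes and in NEAT1 the DMSO + PHA library stood between DMSO and both JQ1 libraries. Most of that order follows from how the genes were chosen, and only the place of DMSO + PHA below JQ1 was free. EFR3B and XXbac-B562F10.12 were also among the 6, at 0.385 and 0.877 FPKM and at 0.165 and 1.18 FPKM in DMSO and DMSO + PHA. XXbac-B562F10.12 had the same order, with 4.66 FPKM in JQ1 and 4.67 in JQ1 + PHA.

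The 4 members that were lower with PHA in DMSO (LINC01389, IGHV4-39, RP11-792A8.4 and RP11-638I2.4) had at most 18 counts in either library, and for RP11-792A8.4 alone the interval, from -3.27 to -0.26, left out 0. Under JQ1, RAB8B, a GTPase of membrane traffic, was at 6.02 FPKM without PHA and 16.0 with PHA, after 2.73 and 4.63 in the DMSO libraries. WDR37 was at 3.71 and 7.91 FPKM under JQ1 and 1.66 and 1.80 in DMSO. CCDC92 went the other way, with 6.23 and 2.67 FPKM under JQ1 and 1.24 and 0.984 in DMSO. The 5 members whose JQ1 ratios differed most between resting and PHA-treated cells were XXbac-B562F10.12 (log2 ratios 4.17 and 1.89), IGHV4-39 (1.33 and 3.15), SLFN5 (3.46 and 1.80), RP11-638I2.4 (1.22 and 2.73) and NATD1 (2.46 and 1.07), of which SLFN5 had more than 100 counts in every library.

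**Figure D5:**
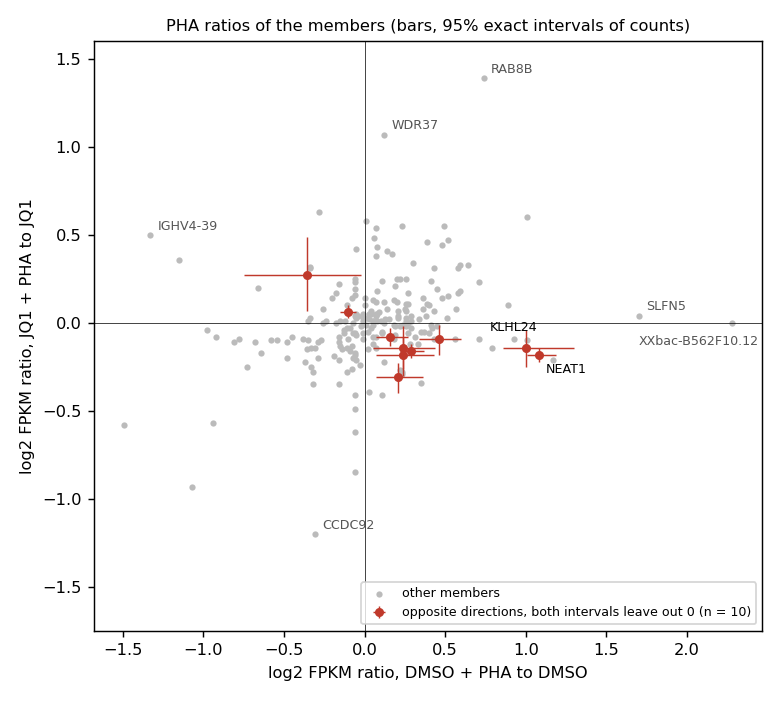
Log2 FPKM ratio with PHA against without, in DMSO (horizontal) and under JQ1 (vertical), 1 point per member, with 95% exact intervals of the counts for the 10 members in red whose ratios had opposite signs and intervals that left out 0. Most points lie near the origin, SLFN5 and NEAT1 lie to the right at 1.70 and 1.08, and RAB8B and WDR37 lie above at 1.39 and 1.07.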

How the data were processed

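RNA-seq of 4 Jurkat cultures, 1 library per condition, was analysed from the deposited tables. The authors aligned reads to GRCh38 with Hisat2 2.0.4, and the submitters' processing notes also name TopHat2 2.0.9 and Cufflinks 2.1.1. The paper names a stranded library kit and the labels another kit of the same maker, so whether the libraries keep strand is unsettled. Which program counted the reads, whether it used strand, and which annotation release it used are not given in the sources used here. The authors deposited, for each of 50868 genes, raw counts of reads and FPKM.

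Tables were joined on the Ensembl identifier, 0.1 FPKM was added before log2 ratios, and genes with a mean of at least 1 FPKM were kept. Counting error was expressed as 95% exact (Clopper-Pearson) limits on each ratio of count shares. No test of JQ1 was made, since the members were chosen by these ratios and each condition has 1 library. At most 3 counts was treated as the floor. The members and all gene lists were chosen with earlier results of these data known. Named genes are the 20 members with the largest smaller ratio, the 10 of highest mean FPKM, those nearest the limits, members of the lists, members moved 2-fold by PHA, the 5 whose ratios differ most, members within 100 kb of another, and members of function groups made after values were seen. Some members and marker genes are not reported here. Genes that overlap a member are named beside it and, like SERTAD1, MLLT3 and BRD2, were chosen after their values were seen.

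Gene classes came from GENCODE 44, where 225 members were found, 58 of them under another symbol. Sequences came from RefSeq (GRCh38.p14), matched by symbol for 135 members. Alternatives were the pseudocount, level filter, fold, centring, rescaling, TMM (edgeR 4.0.16) and DESeq2 1.42.0 size factors, counting bounds, gene type and overlap. Python 3.11.15 (numpy 2.4.6, pandas 2.3.3, scipy 1.17.1, matplotlib 3.10.9) and R 4.3.3 were used.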

Additional observations from a re-analysis of the deposited data

Results flagged for a closer look

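The PHA ratio had opposite signs in DMSO and under JQ1 in 82 of the 227 members, and in 10 of these both counting intervals left out 0. The same count over all genes tested was not made, so the 10 have no background beside them and are given as values. The difference between the ratios was not tested, since each condition has 1 library, and it equals the difference between the JQ1 ratios with and without PHA. The log2 PHA ratio under JQ1 minus that in DMSO was -1.25 for NEAT1, -1.14 for KLHL24, -0.55 for CCNG2, -0.52 for PPFIBP1, -0.45 for FRYL, -0.43 for ZBED6, -0.37 for NDST2, -0.24 for SESN3, 0.17 for RRM2 and 0.63 for ASB16-AS1. In 8 of the 10 the log2 PHA ratio was above 0 in DMSO and below 0 under JQ1. Some of these ratios were small, such as -0.09 for CCNG2 and -0.08 for SESN3 under JQ1, and the intervals cover counting error only. A gene low in 1 DMSO library was more readily chosen, so the PHA ratios in DMSO are also shaped by the rule. NEAT1 had log2 PHA ratios of 1.08 (1.01 to 1.19) in DMSO and -0.18 (-0.22 to -0.14) under JQ1. KLHL24, a substrate adaptor of a ubiquitin ligase, was at 0.883 FPKM in DMSO, 1.87 in DMSO + PHA, 6.06 in JQ1 and 5.48 in JQ1 + PHA.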

How the results depend on the processing

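The number of members followed the limits more than the scaling. It was 250 with a pseudocount of 0.01 FPKM, 243 after centring on the median gene, 257 after rescaling FPKM to a common total, 267 with TMM factors and 279 with DESeq2 size factors, and each of these sets held all 227 members. It moved to 102 with a pseudocount of 1 FPKM, to 476, 535 and 84 with a level filter of 0.1 FPKM, none and 5 FPKM, to 856 and 41 with a fold of 1.5 and 3, to 125 with the lower counting bound at 2-fold, to 147 for protein-coding genes and to 113 for loci that overlap no other gene with more than 3 counts. Genes at least 2-fold higher without PHA numbered 600, and 305 with a pseudocount of 1 FPKM and 1486, 1945 and 198 with the level filters in the same order. With PHA they numbered 424, and 225, 1145, 1575 and 143. Of 102 named members, 67 stayed at 2-fold or more with a pseudocount of 1 FPKM and 102 under centring and both scalings, and none changed sign. Pairs of members within 100 kb numbered 36, and 31 and 46 within 50 and 250 kb. The median log2 PHA ratio in DMSO stayed between 0.04 and 0.06. The motif share over members was not run, because too few members had a promoter. No paired analysis was run, because the members were chosen by both JQ1 ratios and a test of JQ1 on them would be circular. Members with few counts are limited by depth.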
